A study of Homo sapiens with 6 samples.

Results

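The 10 genes described here are CD38 and 9 genes of NAD metabolism, NAMPT, NAPRT, NMNAT1, NMNAT3, NADSYN1, NADK, NADK2, SIRT1 and PARP1. They were taken by gene symbol from a deposited count table of 25336 genes, and all 10 were found and passed the filter on low counts. They were selected on their fold changes in the same comparison that is described here, so those fold changes are a description. The cells were THP-1, a human line from an acute monocytic leukaemia, with 3 RNA-seq libraries called control and 3 from cells given pristimerin, a plant triterpenoid of the quinone methide type. The labels number the libraries 1 to 3 within each group and give no genotype, vehicle, dose or exposure time, and they do not say whether any library also received erastin, the ferroptosis inducer named in the title of the series. Higher and lower always mean the pristimerin libraries relative to the control libraries.

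NAD carries electrons in metabolism and is also consumed as a substrate by enzymes that release nicotinamide from it. NAMPT rebuilds NAD from nicotinamide, NAPRT starts from nicotinic acid, and a de novo route starts from tryptophan through kynurenine. These routes meet at the NMNAT enzymes, and NADSYN1 completes the acid routes. CD38 is a surface glycohydrolase that cleaves NAD, makes the calcium messenger cyclic ADP-ribose and serves as a marker of activated and maturing blood cells. The sirtuin deacylase SIRT1 and the poly(ADP-ribose) polymerase PARP1 are the other classes of NAD consumer.

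CD38 stood apart from the other 9 genes by the size of its difference. Its mean was 5.00-fold higher in the pristimerin libraries, or 2.32 (SE 0.08) as a log2 fold change. The next largest was NMNAT3, the mitochondrial adenylyl transferase, at 0.69 (SE 0.08), and the remaining 8 genes lay between -0.32 and 0.29. A gene was called where the Benjamini-Hochberg value of edgeR's quasi-likelihood test, adjusted over all genes, was below 0.05. Of the 10 genes, 5 were called higher and 2 lower, where 29.6% of 15305 genes were called in all, 14.5% higher and 15.1% lower. Among the 10413 genes averaging 5 CPM (counts scaled to a common library total) or more, 34.4% were called, 19.6% higher and 14.8% lower. The same 5 and 2 genes had no overlap between the groups, as had 21.0% of all genes on the higher side and 22.3% on the lower side. CD38 alone of the 10 was called and at least 2-fold higher, as were 0.908% of all genes. No p is given for these 10 genes and nothing is read from their counts.

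The upstream bases of CD38 are shown beside those of NMNAT3 and NMNAT1, because CD38 and NMNAT3 had the largest differences of the set and NMNAT1, the nuclear relative of NMNAT3, differed in the other direction. The windows were taken from RefSeq on GRCh38.p14 and end at the base before the deposited gene start. CD38 is given for chr4:15778078-15778274 on the plus strand, NMNAT3 for chr3:139678018-139678300 on the minus strand and NMNAT1 for chr1:9943225-9943427 on the plus strand. Capitals mark GGGCGG on either strand, the core letters of a GC box, and neighbouring matches can touch.
CD38: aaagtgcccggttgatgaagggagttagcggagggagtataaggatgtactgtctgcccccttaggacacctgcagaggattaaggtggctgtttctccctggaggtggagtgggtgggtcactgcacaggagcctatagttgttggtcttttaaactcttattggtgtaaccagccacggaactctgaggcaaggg
NMNAT3: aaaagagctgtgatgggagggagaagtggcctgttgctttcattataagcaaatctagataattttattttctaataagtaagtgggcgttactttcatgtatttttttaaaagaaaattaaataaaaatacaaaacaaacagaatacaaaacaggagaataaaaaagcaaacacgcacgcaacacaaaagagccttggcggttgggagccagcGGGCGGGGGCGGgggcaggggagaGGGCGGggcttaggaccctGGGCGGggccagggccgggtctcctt
NMNAT1: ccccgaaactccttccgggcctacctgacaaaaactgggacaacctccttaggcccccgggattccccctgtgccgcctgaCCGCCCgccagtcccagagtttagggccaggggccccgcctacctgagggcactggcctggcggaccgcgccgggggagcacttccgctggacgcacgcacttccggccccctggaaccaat

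The 197 bases before CD38 held 3 CpG dinucleotides and no GGGCGG. The 283 bases before NMNAT3 held 10 CpG dinucleotides and 4 matches, and the 203 bases before NMNAT1 held 15 and 1. RefSeq windows from 250 bases before to 50 after the start were matched for 9 of the 10 genes, in 14 windows. The CD38 window had 4 CpG dinucleotides, against a median of 14 over 35116 promoters and against 5 to 39 in the other members' windows. Among all promoters it lay at the 29.6th percentile of CpG count and the 39.5th percentile of GC content. GGGCGG on either strand was present in at least 1 window for 8 of the 9 genes, all except CD38. Per single window it was present in 45.0% of all windows. NADK, NADK2 and NMNAT3 had more than 1 window each, so the gene count and this share are not in like units. CD38 also had no match to TATAAA (11.5% of all windows), to TGANTCA (7.71%), to TGACNNNGC (13.3%), to AGGTCA (13.8%) or to CACGTG (7.26%) on either strand. These are matches of letters in short windows and say nothing about which factors act there.

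CD38 (ENSG00000004468, protein-coding, hg38 chromosome 4, 15778275 to 15853232, plus strand) was covered by 663, 807 and 477 counts in control replicates 1, 2 and 3 and by 3841, 3524 and 2879 in pristimerin replicates 1, 2 and 3. Relative to the library total scaled by TMM, which corrects each total for differences in RNA composition, these were 24.3, 28.1 and 24.6 CPM in control and 128.0, 136.1 and 122.1 CPM in pristimerin. Every pristimerin library lay far above every control library, and the libraries within a group differed by little. The means were 25.7 ± 2.1 and 128.7 ± 7.0 CPM (SD, n = 3 each). Of the 10413 genes averaging 5 CPM or more, 3 had a larger positive log2 fold change. By deposited FPKM, which divides by gene length as well as depth, CD38 moved from the 50.5th to the 84.2nd percentile of the genes tested. No other gene of the count table overlaps CD38.

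**Figure D1:**
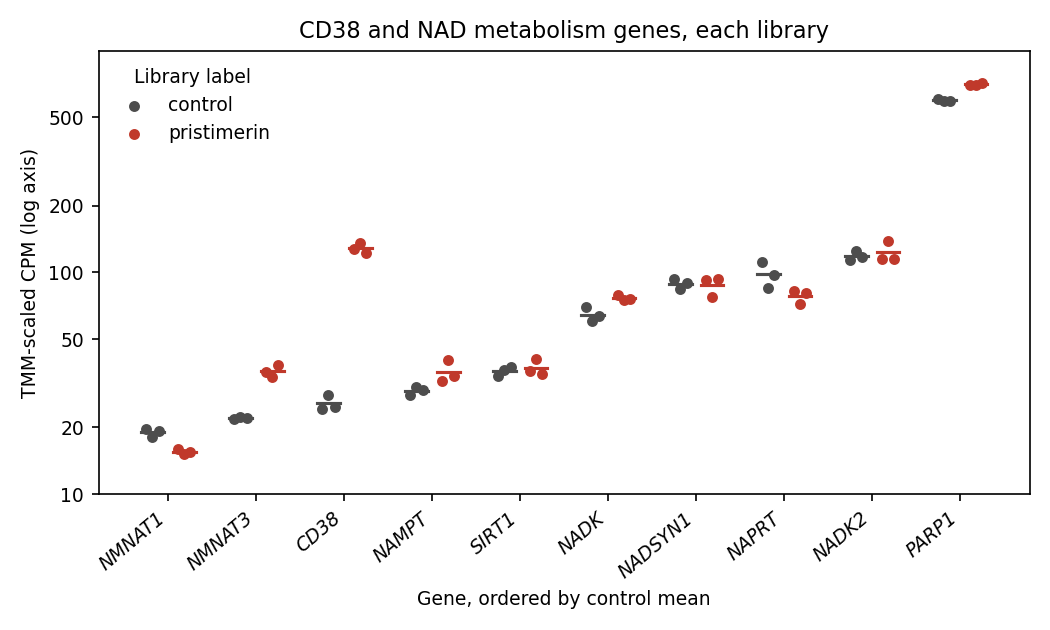
TMM-scaled CPM (log axis) of the 10 genes in each library, with control libraries in grey, pristimerin libraries in red and a bar at each group mean (n = 3). CD38 moved from 24.3 to 28.1 CPM in control libraries to 122.1 to 136.1 CPM in pristimerin libraries, and the groups of NADSYN1, NADK2 and SIRT1 overlap.

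The gene beside CD38 went the other way. BST1 (CD157), the paralogous ectoenzyme of CD38, ends 39961 bases before CD38 starts on the same strand of chromosome 4 with no listed gene between them. It measured 103.5, 108.3 and 109.1 CPM in control and 82.0, 85.1 and 85.9 CPM in pristimerin libraries. The groups did not overlap, and BST1 fell by 0.34 on the log2 scale (SE 0.06, adjusted p = 0.00048 in edgeR's quasi-likelihood test). BST1 was not among the 10 chosen genes, but its list was also made with earlier results of these data known. In deposited FPKM, BST1 was 9.23 to 10.6 times the level of CD38 in the control libraries and 1.497 to 1.68 times its level in the pristimerin libraries. CD38 made up 8.62% to 9.78% of the summed FPKM of both genes in control libraries and 37.3% to 40.1% in pristimerin libraries. The sum itself was 40.7 to 43.2 FPKM in control and 46.3 to 48.3 FPKM in pristimerin libraries. Undivided by length, CD38 was above BST1 in the pristimerin libraries, at 122.1 to 136.1 against 82.0 to 85.9 CPM. Per kilobase of the longest coding transcript, BST1 was the higher there, at a mean of 41.25 against 22.14 CPM. SARM1, the axonal NAD hydrolase, was near the detection limit with 10 to 33 counts in control and 8 to 19 in pristimerin libraries, and its difference of -0.76 (SE 0.36) did not pass the test (adjusted p = 0.13).

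**Figure D2:**
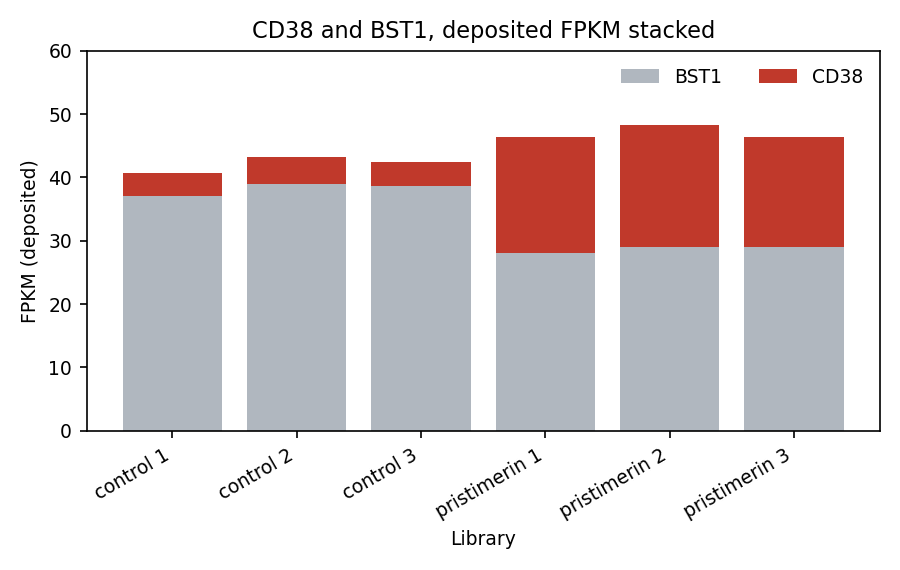
Deposited FPKM of BST1 (grey) and CD38 (red), stacked for each of the 6 libraries. In FPKM, BST1 remained the larger part in every library. The CD38 part grew from at most 9.78% of the sum in control to at least 37.3% in pristimerin libraries.

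Of the members that build NAD, NMNAT3 differed by more than the others, whose differences were small and went both ways. NAMPT, the rate-limiting enzyme of nicotinamide salvage (chromosome 7, 106248298 to 106285966, minus strand), measured 28.0, 30.3 and 29.4 CPM in control and 32.5, 40.5 and 34.3 CPM in pristimerin libraries. The groups did not overlap, but pristimerin replicate 2 stood above the other pristimerin libraries, and the log2 fold change was 0.29 (SE 0.09). Without pristimerin replicate 2 it was 0.19 and without control replicate 1 it was 0.26, and neither value passed the threshold. NAPRT, which starts the nicotinic acid route (chromosome 8, 143574785 to 143578649, minus strand), measured 111.2, 85.1 and 97.9 CPM in control and 82.8, 72.2 and 81.0 CPM in pristimerin libraries. The lowest control library was close to the highest pristimerin library, and the log2 fold change was -0.32 (SE 0.09), or -0.21 and not past the threshold without control replicate 1. Reads of NAMPT can be shared with 3 pseudogenes that GENCODE names and the count table does not list.

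The adenylyl transferases, which turn the mononucleotides into dinucleotides, differed in opposite directions. NMNAT3 (chromosome 3, 139560180 to 139678017, minus strand) measured 21.9, 22.4 and 22.2 CPM in control and 35.6, 33.8 and 38.1 CPM in pristimerin libraries. The control libraries were nearly equal, and the pristimerin mean was 61.9% above theirs. NMNAT1, the nuclear enzyme (chromosome 1, 9943428 to 9985501, plus strand), measured 19.8, 18.1 and 19.3 CPM in control and 16.0, 15.2 and 15.5 CPM in pristimerin libraries. Its groups did not overlap, with a log2 fold change of -0.29 (SE 0.09). The call for NMNAT1 was lost without control replicate 1 (-0.26) or 3 (-0.26) and without pristimerin replicate 2 (-0.27) or 3 (-0.27). Per length, in deposited FPKM, NMNAT1 was above NMNAT3 in both groups, at 4.23 against 1.74 in control and 3.29 against 2.69 in pristimerin libraries. Reads of NMNAT1 can be shared with 5 pseudogenes. NMNAT3 lies inside COPB2-DT, a gene on the opposite strand with 9.91% as many counts and a log2 fold change of -0.29.

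NMNAT2, the adenylyl transferase known from axons, had 37 to 71 counts per library and its difference of -0.42 (SE 0.23) missed the threshold (adjusted p = 0.19 in edgeR), except without control replicate 1 (-0.64). NADSYN1, the glutamine-dependent NAD synthetase (chromosome 11, 71453109 to 71524107, plus strand), measured 84.1 to 93.6 CPM in control and 77.3 to 93.8 CPM in pristimerin libraries. These ranges overlap almost fully, and the log2 fold change of -0.02 (SE 0.08) changed sign in 5 of the 17 alternatives.

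**Figure D3:**
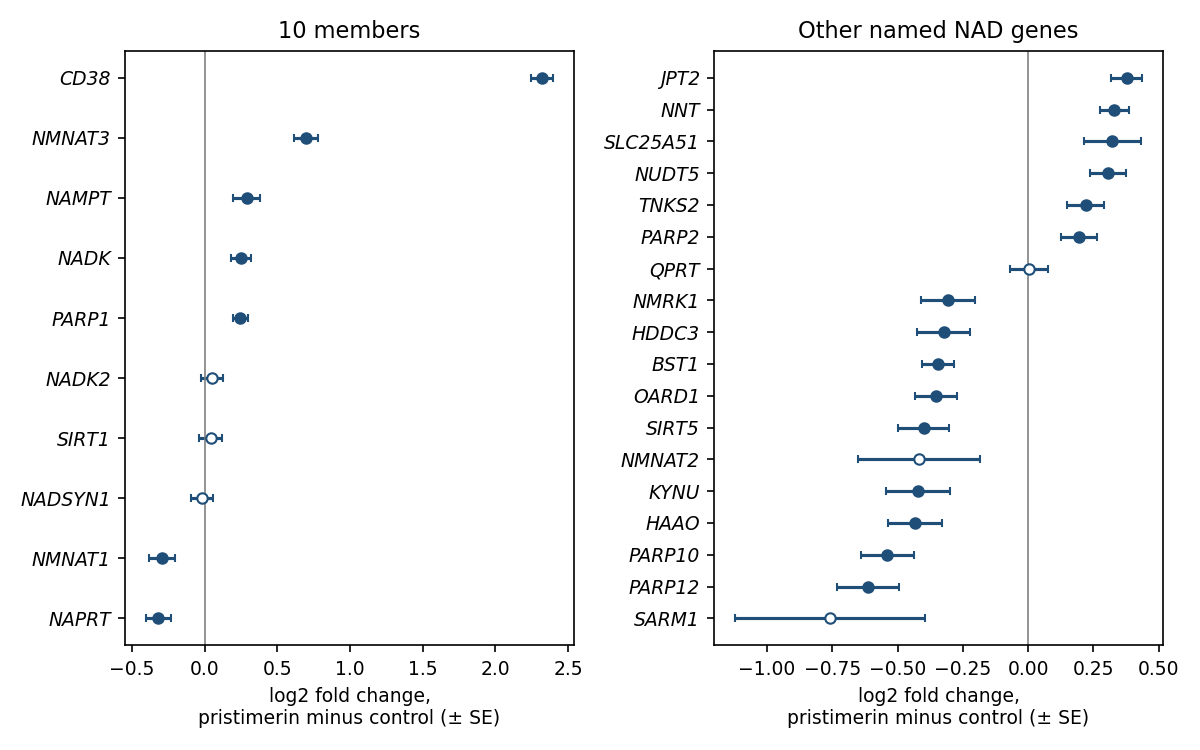
Log2 fold change, pristimerin minus control, with its standard error from edgeR (3 libraries per group), for the 10 genes on the left and, on the right, the other NAD genes named by rule; filled points have an adjusted p under 0.05. The axes differ in scale: CD38 reaches 2.32, and the genes plotted on the right, which do not include KMO, lie between -0.76 and 0.38.

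The kinases that phosphorylate NAD to NADP were at most slightly higher. NADK, the cytosolic kinase (chromosome 1, 1751232 to 1780457, minus strand), measured 69.6, 60.3 and 63.8 CPM in control and 79.1, 75.2 and 75.8 CPM in pristimerin libraries. The groups did not overlap, and the log2 fold change was 0.25 (SE 0.07). Its call was lost with upper-quartile scaling (0.19), with library totals (0.18), on both FPKM scales (0.17 and 0.18) and without pristimerin replicate 1 (0.23). NADK2, the mitochondrial kinase (chromosome 5, 36192589 to 36242279, minus strand), measured 114.0, 125.2 and 117.9 CPM in control and 114.8, 139.2 and 115.5 CPM in pristimerin libraries. Replicate 2 was the highest of each group, the groups overlapped, and the difference of 0.05 (SE 0.08) turned its sign in several alternatives, among them upper-quartile scaling and library totals. NADK2 shares 4261 bases at its 3′ end with SKP2, an opposite-strand gene with 146% as many counts and a log2 fold change of 0.40, and although the libraries kept the strand, whether counting used it was not stated.

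PARP1, the polymerase that marks DNA breaks with poly(ADP-ribose) (chromosome 1, 226360210 to 226408154, minus strand), was the member with the most counts, between 11524 and 21126 per library. It measured 603.0, 592.8 and 595.2 CPM in control and 703.8, 703.4 and 718.9 CPM in pristimerin libraries. Both groups were tight, with a coefficient of variation of 0.889% and 1.25%, and the mean was 18.7% higher in pristimerin libraries. Reads of PARP1 can be shared with 2 pseudogenes. SIRT1 (chromosome 10, 67884656 to 67918390, plus strand) measured 34.2, 36.4 and 37.5 CPM in control and 35.9, 40.6 and 34.7 CPM in pristimerin libraries. These groups overlapped, with a log2 fold change of 0.04 (SE 0.08) whose sign turned in several alternatives, among them upper-quartile scaling and library totals.

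Replicate 2 differed from the other libraries of its group in the same direction in both groups for several of these genes. On the second principal component of the tested genes (13.1% of the variance), both libraries numbered 2 lay at negative scores and the other 4 at positive scores. Against the mean of the other libraries of its group, replicate 2 was higher in both groups for 4 genes (CD38, NAMPT, NADK2 and SIRT1) and lower in both groups for 5 (NAPRT, NMNAT1, NADSYN1, NADK and PARP1). The share of all genes with the same direction in both groups was not computed, so nothing is read from these counts. Across all genes tested, the deviations of both libraries numbered 2 correlated at 0.137. Some gaps were very small, among them PARP1 (-0.015 in control, -0.016 in pristimerin) and SIRT1 in control (0.023). The widest of these gaps were -0.29 in control for NAPRT and 0.28 in pristimerin for NAMPT, on the log2 scale. For CD38 they were 0.20 in control and 0.12 in pristimerin, small beside its log2 fold change. Without both libraries of replicate 2, an alternative chosen after seeing the data, 4 of the 10 genes were called higher and 2 lower, and NAMPT lost its call (0.22).

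Per length, the order of the genes depended on which length was used. In deposited FPKM of the control libraries, NAPRT (35.4 ± 4.7; SD, n = 3) and PARP1 (33.2 ± 0.4) were the highest and within their spread of each other. NADK2 (24.3 ± 1.3), NADK (11.9 ± 0.9), SIRT1 (8.09 ± 0.35) and NADSYN1 (6.09 ± 0.31) followed, each apart from the next. NMNAT1 (4.23 ± 0.18) and CD38 (3.84 ± 0.33) came next and were within their spread of each other. NMNAT3 (1.74 ± 0.03) and then NAMPT (1.27 ± 0.05) were the lowest in FPKM, apart from each other. In the pristimerin libraries CD38 reached 18.3 ± 1.0 FPKM (SD, n = 3) and stood between NADK2 (23.9 ± 2.7) and NADK (13.4 ± 0.4).

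The lengths behind the deposited FPKM were long for some of these genes. They came to 23.58 kb for NAMPT, 18.4 kb for PARP1 and 14.97 kb for NADSYN1, against 4.58, 3.96 and 2.77 kb for their longest coding transcripts in the GENCODE basic set. On that shorter length, PARP1 in control libraries stood at 154.4 ± 1.7 CPM per kilobase, well above NAPRT at 51.1 ± 6.7 (SD, n = 3 each). NAMPT rose in the order to 6.53 ± 0.27, above CD38 at 4.64 ± 0.40. In the pristimerin libraries CD38, at 22.1 ± 1.2 on the transcript length, was above NAMPT at 7.60 ± 0.88 on the same scale. The place of CD38 changed from rank 8 of 10 to rank 4 in FPKM, and from rank 9 to rank 5 on transcript length.

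The rest of the NAD pathway was taken from lists made by role. Of 64 listed genes other than the 10, 55 were tested, and 6 were called higher and 10 lower. That is 29.1% called, against 29.6% of all genes tested, a share near that background. Their median log2 fold change was 0.00, against -0.01 for all genes tested.

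Of 7 tested NAD synthesis genes other than the 10, 4 fell and 0 rose, where 15.1% of all genes tested were called lower and 14.5% higher. With the members of the same list, NAMPT and NMNAT3 higher and NAPRT and NMNAT1 lower among them, 6 of 12 tested genes were called lower and 2 higher. HAAO, KYNU and KMO of these belong to the tryptophan route, and NMRK1 to salvage. HAAO, the dioxygenase that makes the quinolinate precursor, fell from 17.9 ± 1.5 to 13.2 ± 1.4 CPM (SD of 3 libraries; log2 fold change -0.43, SE 0.10, adjusted p = 0.0048 in edgeR). Kynureninase KYNU fell from 6.92 ± 0.59 to 5.20 ± 0.44 CPM (-0.42, adjusted p = 0.015 in edgeR), a call lost without pristimerin replicate 1 (-0.36), with DESeq2 (-0.40) and on both FPKM scales (-0.12 and -0.37). KMO, the kynurenine hydroxylase, which is named here after its values were seen, had only 28, 38 and 30 counts in control and 10, 19 and 23 in pristimerin libraries (-0.95, adjusted p = 0.043 in edgeR). Its call was lost without control replicate 2 (-0.92) or 3 (-0.81) and without pristimerin replicate 1 (-0.59) or 2 (-1.03), with DESeq2 (-0.93) and on both FPKM scales (-0.14 and -0.64). KMO overlaps OPN3, an opposite-strand gene with 101% as many counts. QPRT, which converts quinolinate to the mononucleotide, averaged 151.6 ± 13.2 CPM in control and 152.0 ± 11.0 CPM in pristimerin libraries (SD), with a log2 fold change of 0.00 (SE 0.07), but it overlaps SPN on the same strand, a gene with 308% as many counts.

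NMRK1, the nicotinamide riboside kinase, fell from 9.44 ± 0.59 to 7.61 ± 0.24 CPM (SD, n = 3 each; -0.31, adjusted p = 0.034 in edgeR). That call was lost without control replicate 2 (-0.30) or 3 (-0.25), without any of the pristimerin replicates (-0.32 for replicate 1, -0.32 for replicate 2 and -0.26 for replicate 3), with no low-count filter (-0.29) and with DESeq2 (-0.29). TDO2, ACMSD and NMRK2 were below the filter on low counts and were not tested. IDO1 was not found under that symbol in the count table and could not be tested.

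Genes that exchange or move the NAD pool were mixed. Of 5 tested genes of NADP formation and exchange other than the kinases, 2 rose and 1 fell. Of all genes tested, 14.5% were called higher and 15.1% lower. NNT, the mitochondrial transhydrogenase that makes NADPH from NADH, rose from 389.5 ± 6.1 to 489.6 ± 13.9 CPM (SD, n = 3 each; 0.33, SE 0.06, adjusted p = 0.00028 in edgeR). SLC25A51, the mitochondrial NAD carrier, rose from 10.7 ± 1.5 to 13.4 ± 0.7 CPM (0.32, adjusted p = 0.035 in edgeR), a call lost without control replicate 1 (0.21) or pristimerin replicate 2 (0.33) or 3 (0.31), with upper-quartile scaling (0.26) and with library totals (0.25). HDDC3, the NADPH phosphatase MESH1, fell from 14.6 ± 0.3 to 11.7 ± 1.2 CPM (-0.32, adjusted p = 0.022 in edgeR), a call lost without control replicate 3 (-0.30) or pristimerin replicate 2 (-0.24) and with DESeq2 (-0.30). HDDC3 overlaps UNC45A, an opposite-strand gene with 611% as many counts and nearly the same log2 fold change (-0.32).

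Of 12 tested genes that sense the products of CD38, degrade them or bind CD38, 2 rose and 0 fell, which is 16.7% called against 29.6% of all genes tested, a difference that was not tested. JPT2, a binding protein of the calcium messenger NAADP, rose from 96.3 ± 2.5 to 125.2 ± 3.2 CPM (SD, n = 3 each; 0.38, SE 0.06, adjusted p = 0.00017 in edgeR), and the ADP-ribose hydrolase NUDT5 from 54.3 ± 4.0 to 67.3 ± 1.0 CPM (0.31, adjusted p = 0.0034 in edgeR). NUDT5 overlaps CDC123 on the opposite strand by 180 bases. TRPM2, the calcium channel opened by ADP-ribose, measured 152.8 ± 15.6 and 137.6 ± 4.4 CPM (SD, n = 3 each), and its difference of -0.15 (SE 0.07, adjusted p = 0.12 in edgeR) passed the threshold under upper-quartile scaling (-0.21), library totals (-0.22), without control replicate 2 (-0.22) and without both libraries of replicate 2 (-0.20), among other settings. PECAM1 (CD31), the surface ligand of CD38, measured 187.5 ± 0.9 and 194.3 ± 6.0 CPM (SD, n = 3 each), a difference of 0.05 (SE 0.06, adjusted p = 0.54 in edgeR) that turned negative under upper-quartile scaling, library totals and both FPKM scales. TRPM2 and PECAM1 are named after their values were seen.

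Among 6 sirtuins besides SIRT1, 1 fell and 0 rose: SIRT5, the mitochondrial desuccinylase, went from 14.2 ± 1.2 to 10.7 ± 0.3 CPM (SD, n = 3 each; -0.40, SE 0.10, adjusted p = 0.0057 in edgeR), not called without control replicate 3 (-0.32). Among 17 further PARP family and partner genes, 2 rose and 2 fell. Beside these and the sirtuins, 14.5% of all genes tested were called higher and 15.1% lower. PARP12, a mono-ADP-ribosyltransferase, fell from 11.2 ± 1.9 to 7.27 ± 0.17 CPM (-0.61, SE 0.12, adjusted p = 0.00097 in edgeR), and PARP10 from 61.9 ± 10.1 to 42.5 ± 3.9 CPM (-0.54, adjusted p = 0.00074 in edgeR). PARP10 overlaps GRINA, an opposite-strand gene with 136% as many counts and nearly the same log2 fold change (-0.54).

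Tankyrase TNKS2 rose by 0.22 (adjusted p = 0.026 in edgeR) and PARP2, the partner of PARP1 in break repair, by 0.20 (adjusted p = 0.04 in edgeR). TNKS2 lost its call without control replicate 1 (0.18) or 3 (0.23) or pristimerin replicate 2 (0.15), and with upper-quartile scaling (0.16) and library totals (0.15). PARP2 lost its call without control replicate 1 (0.20) or 3 (0.19), without any of the pristimerin replicates (0.21, 0.21 and 0.19), and with upper-quartile scaling (0.14) and library totals (0.12). OARD1, which removes terminal ADP-ribose, was the only one of 6 tested ADP-ribose removal genes that passed the test, at -0.35 (SE 0.08, adjusted p = 0.0034 in edgeR). Of all genes tested, 15.1% were called lower and 14.5% higher. OARD1 overlaps NFYA, an opposite-strand gene with 405% as many counts.

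Retinoic acid is a classical inducer of CD38 in myeloid leukaemia cells, and genes of retinoid signalling were therefore listed. Of 16 listed genes 6 were tested, with 2 lower and 0 higher, where 15.1% of all genes tested were called lower and 14.5% higher. The receptor RXRA fell from 260.5 ± 12.6 to 167.7 ± 3.4 CPM (SD, n = 3 each; -0.64, SE 0.06, adjusted p = 5.6e-07 in edgeR), and RXRB by 0.23 on the log2 scale (adjusted p = 0.02 in edgeR), the latter not called without control replicate 3 (-0.22) or pristimerin replicate 2 (-0.15). RXRB overlaps SLC39A7 on the opposite strand by 361 bases. RARA, a retinoic acid receptor, was at 0.14 (SE 0.09, adjusted p = 0.26 in edgeR). Of the other listed genes, 9 were in the count table below the filter on low counts and were not tested. Among these, DHRS3 was higher without overlap (0.037 to 0.14 CPM in control, 0.34 to 0.57 CPM in pristimerin libraries). CYP26B1 was also higher without overlap (0 to 0.10 and 0.13 to 0.23 CPM). ALDH1A2 was lower without overlap (0.035 to 0.15 and 0 CPM). All of these values rest on very few counts.

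The 5 genes with a profile nearest to that of CD38 over the 6 libraries were the sterol oxidase MSMO1, the ferlin MYOF, the desaturase FADS2, the sterol reductase DHCR7 and the cytokine receptor IL31RA. Likeness was the root-mean-square difference of log2 CPM after each gene was centred on its own mean, over the 10052 other genes that averaged 5 CPM or more and were listed under a proper gene symbol rather than a clone or locus identifier, and these genes lay at 0.110, 0.173, 0.229, 0.237 and 0.260. With 2 groups of libraries this measure mainly finds genes with a similar size of difference. The nearest of the other 9 NAD genes was NMNAT3, at 0.823.

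Markers of the labelled line were present, and 11 of 12 had at least 10 counts in every library, CD14 excepted. Their summed level was 3022 to 3232 CPM in control and 2932 to 3058 CPM in pristimerin libraries (relative to plain library totals). Of the 12, 4 were called lower and 0 higher, where 15.1% of all genes tested were called lower and 14.5% higher. The log2 fold changes ran from -0.71 for ITGAM (CD11b) to 0.92 for CD14, which had few counts (adjusted p = 0.069 in edgeR). LYZ was higher without overlap but not called (0.15, adjusted p = 0.061 in edgeR). CD38 also marks plasma cells, so 8 markers of B and plasma cells were summed. The 6 of them in the count table came to 6.59 to 6.99 CPM in control and 7.82 to 8.35 CPM in pristimerin libraries. Of 3 tested, 2 were called higher and 0 lower, where 14.5% of all genes tested were called higher. They were the transcription factor PAX5 (0.61, adjusted p = 0.034 in edgeR) and the syndecan SDC1 (1.06, adjusted p = 0.045 in edgeR). Both had few counts: PAX5 22 to 43 in control and 50 to 65 in pristimerin libraries, SDC1 5 to 11 and 15 to 22. Neither was followed through the processing alternatives. The joining chain gene JCHAIN had 1 count in all 6 libraries together, and the part of such cells in the difference was not tested. T and NK cell markers summed to 93.1 to 104.5 CPM in control and 101.1 to 103.1 CPM in pristimerin libraries, nearly all NCAM1. The list made for stromal or epithelial cells summed to 190.7 to 194.3 and 185.0 to 194.5 CPM. Nearly all of that was PECAM1, the CD38 ligand named above, so the sum is not read as stromal or epithelial signal. The list's other genes in the count table, COL1A1, EPCAM, KRT8 and CDH1, each reached at most 0.22 CPM in any library. In bulk RNA, more cells expressing CD38 and more CD38 RNA per cell cannot be told apart.

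Among the named genes, the direction turned in some alternatives only for NADSYN1, NADK2, SIRT1, QPRT and PECAM1. Of the 10, CD38, NMNAT3 and PARP1 also kept their call in every alternative, whereas NAMPT, NAPRT, NMNAT1 and NADK lost theirs in some. BST1 and NNT kept theirs throughout, as did HAAO, JPT2, NUDT5, PARP10, PARP12, OARD1, RXRA and the 5 genes nearest to CD38. For CD38 the log2 fold change ran from 2.00 on log2(FPKM + 1), where the pseudocount shrinks low values, to 2.40 without control replicate 2. For NMNAT3 it ran from 0.43 to 0.75 and for PARP1 from 0.17 to 0.27. These alternatives reprocess the same libraries that chose the 10 genes, so they show only how far the values move with the processing. With upper-quartile scaling, library totals or either FPKM scale, 3 of the 10 genes were called higher instead of 5, because NAMPT and NADK were no longer called.

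**Figure D4:**
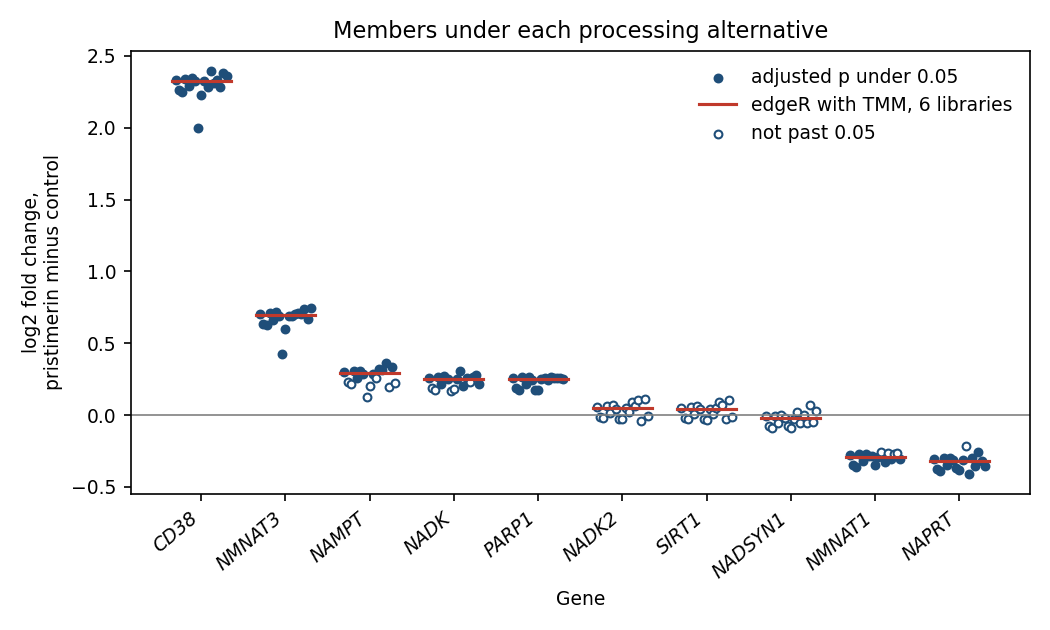
Log2 fold change, pristimerin minus control, of the 10 genes under 17 processing alternatives (points, filled where the adjusted p was under 0.05) and in edgeR with TMM on 6 libraries (red bars). The values of CD38 run from 2.00 to 2.40 and those of NMNAT3 from 0.43 to 0.75, and NADSYN1, NADK2 and SIRT1 scatter around 0.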

How the data were processed

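The treatment label put 3 libraries in each group. Per the labels' protocols, mRNA was enriched by poly(A) and libraries kept the strand through dUTP. The build is hg38, per the submitters' processing notes. The aligner, the counter and its strand setting are not given in the sources used. The deposited counts are whole numbers and unnormalised, with 19057219 to 30568593 per library, so that 3 counts equal 0.0981 to 0.157 CPM. The deposited FPKM values are the count divided by a fixed length and the column total (implied length constant within a coefficient of variation of 2.14e-05 over 4312 genes). Another table repeats both.

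Counts were tested with R 4.3.3 and edgeR 4.0.16 (low genes removed by filterByExpr at a count of 10 and a total of 15; TMM; quasi-likelihood F test on group; Benjamini-Hochberg over 15305 genes, threshold 0.05), a script tested on simulated data. The standard error is the absolute log2 fold change over the square root of F. Fold changes are fitted values. Alternatives used DESeq2 1.42.0, limma 3.58.1, other scalings, filters and FPKM scales, the replicate number as a block, and leaving out libraries. No library was a repeat of another (chi-square over degrees of freedom 2.75 to 11.6 between replicates). The labels call the replicates biosamples without saying whether each was its own culture. The p-values therefore reflect only how these 6 libraries vary, possibly for technical reasons. No batch is labelled.

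The members and lists were chosen with earlier results of these data known. Beyond the members, genes are named if called with a mean of at least 1 CPM (the 6 largest per list), with a few fixed enzymes and the 5 genes most like CD38. KMO, TRPM2, PECAM1, RARA, the untested synthesis and retinoid genes and the markers given by name were named after their values were seen. Figures were drawn with matplotlib 3.10.9.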

Additional observations from a re-analysis of the deposited data

How the results depend on the processing

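Across 17 alternatives, 534 of 641 log2 fold changes of the 38 named genes kept their direction and their side of the threshold, 72 lost a call, 6 gained one and 29 changed sign, the last only among uncalled genes (NADSYN1, NADK2, SIRT1, QPRT and PECAM1). Under upper-quartile scaling NADK2 was -0.012, SIRT1 -0.019, QPRT -0.054 and PECAM1 -0.0087. With library totals they were -0.023, -0.029, -0.066 and -0.020. On log2(FPKM + 1) they were -0.025, -0.029, -0.064 and -0.019, and on log2(FPKM + 0.1) -0.026, -0.032, -0.065 and -0.020. QPRT was -0.029 when fitted on genes averaging 5 CPM or more, and NADSYN1 0.0013 with DESeq2. Leaving out libraries gave -0.058 to 0.068 for NADSYN1, -0.066 to 0.067 for QPRT, -0.045 to 0.112 for NADK2 and -0.025 to 0.105 for SIRT1.

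Of the 10 members, 5 were called higher, but 3 with upper-quartile scaling, library totals, log2(FPKM + 1) or log2(FPKM + 0.1), and 4 to 5 without single libraries. The 2 called lower became 0 without control replicate 1, 1 without control replicate 3, pristimerin replicate 2 or pristimerin replicate 3, and 2 otherwise. Of the other NAD genes, 6 were called higher, but 3 with upper-quartile scaling, library totals, the 5 CPM filter or either FPKM scale. The 10 lower ones became 18 with upper-quartile scaling and library totals, 6 with DESeq2, and 6 to 12 without libraries, the 6 without control replicate 3. Over all genes, 2216 higher became 1389 with library totals, 1081 on log2(FPKM + 1) and 1084 on log2(FPKM + 0.1), and 2313 lower ranged from 1534 (without control replicate 3) to 2329 without libraries. Increases were 48.9% of all calls with TMM, 33.3% with upper-quartile scaling and 30.1% with library totals. The cause of these shifts was not tested.

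Same-numbered libraries of both groups deviated together with correlations of 0.098, 0.137 and 0.037 across genes, so the numbers were not treated as pairs, although every library correlated best with its own number. With the replicate number as a block, 5 members were called higher and 2 lower, 7 other NAD genes higher and 17 lower, and 3150 genes higher and 2948 lower. TRPM2, not called without the block, was called with it (-0.15).

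Calls near the threshold rest on 3 libraries per group. Genes with few counts, SARM1, KMO and NMNAT2 among them, had wide errors (SE 0.23 to 0.36).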
